A study of Homo sapiens with 4 samples.

Results

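The regions described here are 244 broad stretches of open chromatin at the ends of protein-coding genes in HCT116, an established cell line from a human colorectal carcinoma. They were chosen by their width. The peak intervals of 4 ATAC-seq libraries were merged into 122856 regions on chromosomes 1 to 22 and X, of which 39933 held an interval of every library and 12627 of these came within 1000 bp of where a protein-coding gene begins or ends. A region was kept where each of the 4 libraries had an interval of at least 1500 bp, which left 244 regions (1.93% of the 12627), with the ends of 302 genes (1.51% of 19974 protein-coding genes). The other 12383 gene-end regions present in every library serve as the comparison.

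In ATAC-seq the Tn5 transposase cuts and tags DNA that is not covered by nucleosomes or compact chromatin, and a peak caller turns pile-ups of cuts into intervals. Control cells carried the lentiviral pSin-Pur-MCS-Puro vector without an insert (2 libraries), and FOXD2 cells carried pSin with the complete coding region of the forkhead transcription factor FOXD2 (2 libraries). Cells of both groups were stably transduced HCT116 cells kept under puromycin at 5 µg/ml, and each reaction used 50000 cells. The sources used here do not give the vector's promoter, nor whether a population was a pool or a clone. The libraries are numbered 1 and 2 in each group, and no label says that these were separate cultures, so their spread, and any p-value built on it, may be technical only. Read depth is unknown. The lists held 77752 and 72796 intervals in the controls against 82739 and 64675 with FOXD2. Of 10 colon epithelium markers, 7 had a gene-end peak in all 4 libraries (CDX1, CDX2, EPCAM, KRT8, KRT18, CDH1 and LGALS4). KRT20, VIL1 and GPA33 did not. The counts were 3 of 10 fibroblast markers (COL1A1, COL1A2, PDGFRA) and 3 of 12 leukocyte markers (ITGAM, SPI1, LCP1). They were 3 of 10 endothelial markers (KDR, ERG, ESAM) and 6 of 10 neural markers (RBFOX3, MAP2, TUBB3, SYT1, SNAP25, SYP). Counted as merged regions holding all 4 libraries, endothelial markers were 2 of 10, without KDR. PTPRC, CD14, PECAM1, DCN and LUM were among those with no gene-end peak in any library. At FOXD2 itself, the gene supplied by the vector, the gene-end interval measured 996 and 1040 bp in the controls and 1150 and 1041 bp with FOXD2, below the minimum. A separate interval inside the gene measured 320 bp in control replicate 1, was not called in control replicate 2, and measured 676 and 689 bp in the FOXD2 libraries. The vector carries the coding region of this gene, and the lists do not tell reads of the vector from reads of the gene itself.

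As background, most promoters of active genes are open over a short stretch just upstream of the transcription start, where the nucleosome is displaced by transcription factors and the polymerase. Many human promoters lie in CpG islands, stretches rich in unmethylated CG dinucleotides that are bound by proteins with a CXXC domain such as KDM2A. A common arrangement is the bidirectional promoter, in which neighbouring genes are transcribed away from each other from 1 open stretch. The best known broad element of this kind lies between CBX3, which encodes the heterochromatin protein HP1 gamma, and HNRNPA2B1, which encodes an RNA-binding protein. Fragments of it are used in expression vectors as a ubiquitous chromatin opening element.

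Reference promoter sequences of 7 of the genes are shown to make the composition of these promoters visible, since CG content and gene arrangement are properties that the choice by width did not use. Each runs from 250 bases before to 50 bases after the annotated start, 5′ to 3′ on the gene's own strand, from RefSeq (GRCh38.p14, the hg38 build), and capitals mark CG dinucleotides. The first pair is the widest region of all by its narrowest library, shared by MBOAT7 (chr19:54189531-54189830, minus strand) and TSEN34 (chr19:54190094-54190393, plus strand), and these windows hold 27 and 28 CG dinucleotides.
MBOAT7: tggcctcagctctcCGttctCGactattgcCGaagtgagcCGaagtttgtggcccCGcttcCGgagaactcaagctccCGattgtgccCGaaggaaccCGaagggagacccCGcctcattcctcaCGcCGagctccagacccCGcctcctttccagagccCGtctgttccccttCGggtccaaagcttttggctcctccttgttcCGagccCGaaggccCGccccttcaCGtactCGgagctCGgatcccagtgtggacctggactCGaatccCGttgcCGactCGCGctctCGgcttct
TSEN34: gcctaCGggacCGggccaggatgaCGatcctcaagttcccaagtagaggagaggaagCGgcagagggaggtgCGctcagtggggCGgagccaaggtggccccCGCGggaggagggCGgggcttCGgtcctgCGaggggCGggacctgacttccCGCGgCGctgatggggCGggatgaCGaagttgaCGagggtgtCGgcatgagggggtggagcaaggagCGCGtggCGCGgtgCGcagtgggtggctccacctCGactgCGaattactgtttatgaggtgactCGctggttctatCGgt
The second pair is the CBX3 (chr7:26201193-26201492, plus strand) and HNRNPA2B1 (chr7:26200697-26200996, minus strand) promoter, with 19 and 29 CG dinucleotides, the region with the smallest ratio of FOXD2 to control width.
CBX3: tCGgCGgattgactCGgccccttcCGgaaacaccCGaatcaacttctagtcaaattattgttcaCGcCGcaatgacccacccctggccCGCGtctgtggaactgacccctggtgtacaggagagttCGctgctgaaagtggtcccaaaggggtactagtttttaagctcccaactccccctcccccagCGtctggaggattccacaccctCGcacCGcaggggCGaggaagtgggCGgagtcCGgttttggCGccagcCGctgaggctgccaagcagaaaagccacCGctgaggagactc
HNRNPA2B1: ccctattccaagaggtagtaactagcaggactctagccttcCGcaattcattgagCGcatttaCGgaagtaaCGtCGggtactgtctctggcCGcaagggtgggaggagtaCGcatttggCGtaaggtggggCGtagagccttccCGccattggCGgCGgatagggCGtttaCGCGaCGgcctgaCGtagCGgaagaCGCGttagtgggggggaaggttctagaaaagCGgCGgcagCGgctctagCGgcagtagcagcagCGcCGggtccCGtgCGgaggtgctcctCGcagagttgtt
SDC1 (chr2:20225426-20225725, minus strand, 27 CG dinucleotides) has the widest region at the end of a single gene, again by its narrowest library. The SDC1 window counted in the medians below is another one, chr2:20225081-20225380, with 23 CG dinucleotides.
SDC1: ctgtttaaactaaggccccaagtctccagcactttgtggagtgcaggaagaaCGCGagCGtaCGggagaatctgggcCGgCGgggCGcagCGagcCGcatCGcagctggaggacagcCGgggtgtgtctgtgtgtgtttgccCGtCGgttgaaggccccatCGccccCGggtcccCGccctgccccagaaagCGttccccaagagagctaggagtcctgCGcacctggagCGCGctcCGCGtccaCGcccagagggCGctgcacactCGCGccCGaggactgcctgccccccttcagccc
ASAP2 (chr2:9206562-9206861, plus strand) and TMEM63B (chr6:44126664-44126963, plus strand) are the extremes of CG content among the promoters whose start lies inside a region, with 60 and 4 CG dinucleotides in 300 bases. The TMEM63B region begins at chr6:44126865, so much of the window shown lies before it. The same region also holds the MRPL14 promoter, with 32 CG dinucleotides.
ASAP2: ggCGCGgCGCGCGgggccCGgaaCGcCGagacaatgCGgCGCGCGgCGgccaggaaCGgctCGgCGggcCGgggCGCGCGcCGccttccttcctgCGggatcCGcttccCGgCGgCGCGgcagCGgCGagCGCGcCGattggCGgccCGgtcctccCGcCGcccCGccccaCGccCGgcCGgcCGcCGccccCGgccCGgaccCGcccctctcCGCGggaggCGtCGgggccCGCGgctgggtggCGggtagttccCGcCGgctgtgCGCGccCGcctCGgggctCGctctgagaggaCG
TMEM63B: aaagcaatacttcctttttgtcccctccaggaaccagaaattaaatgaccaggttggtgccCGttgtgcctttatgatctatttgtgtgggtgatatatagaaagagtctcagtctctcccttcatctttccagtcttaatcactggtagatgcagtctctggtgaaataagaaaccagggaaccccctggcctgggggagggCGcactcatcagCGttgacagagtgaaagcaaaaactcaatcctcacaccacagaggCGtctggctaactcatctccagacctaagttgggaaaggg

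Promoters in broad gene ends held more CG dinucleotides at the median than those in other open gene ends, but not more than those in the gene ends next to them in width. Of the 302 genes, 251 had a promoter sequence, and the annotated start of 239 promoters of the table lay inside a broad region. Their median promoter held 32 CG dinucleotides per 300 bases and 71% G or C. The 9320 promoters that start inside other gene-end regions held a median of 28 CG dinucleotides and 67% G or C, and the 6253 promoters that start in neither kind held 7 and 54.7%. The observed over expected CG ratio reached 0.6, a usual limit for a CpG island, in 94.6% of the broad-region promoters, 90.6% of the others and 30.9% of the rest. The other gene-end regions nearest in width, those of 1250 to 1499 bp in their narrowest library, held 33 CG dinucleotides and 71% G or C, as much as the broad ones, and the 38 broad regions of 1750 bp or more held 29. The step between broad and other open promoters was small beside the step from open promoters to those without a gene-end region in all libraries. The range within the broad group was wide: after TMEM63B, the lowest counts were 6 for ATXN7, a subunit of the SAGA coactivator complex, and 9 for PANK1, a pantothenate kinase of coenzyme A synthesis, and for NME2, a nucleoside diphosphate kinase gene.

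Short promoter motifs were searched as exact letters on both strands in the same 300 base windows. The GC box GGGCGG, recognised by SP and KLF factors, was in 86.6% of the 239 broad-region promoters (95% Clopper-Pearson interval 81.6 to 90.7), 76.4% of the others (75.5 to 77.3) and 59.7% of all 15812 promoters in the table. The ETS core CCGGAAG was in 12.6% (8.63 to 17.4) against 20.8% (20.0 to 21.7) of the others and 14.4% of all. The YY1 core AAGATGGCG was in 2.09% against 4.39%, and TCTCGCGA in 0.837% against 2.70% (2.80% and 1.78% of all). The CCAAT box, CCAAT, was at 36.8% against 36.2%, and 35.9% of all promoters. The forkhead core TGTTTAC was in 3 broad-region promoters (1.26%), against 2.03% of the others and 2.56% of all. The NRF1 core GCGCNTGCG was in 13.8% against 15.9%, and 10.99% of all. The CRE TGACGTCA (2.51% against 3.50%, all 2.59%), the AP-1 site TGANTCA (4.18% against 4.00%, all 5.75%), the E-box CACGTG (11.3% against 10.6%, all 8.82%) and the TATA box TATAAA (4.60% against 4.38%, all 9.42%) were also searched. The GC box is made of G and C only, and broad-region promoters held a median of 71% G or C against 67% in the others. Its share was not counted at like composition or width, and the part of composition was not tested. A match is a string of letters and not a bound site, the motifs can overlap one another, and the intervals cover counting error only.

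The 5 regions of at least 2000 bp in every library were those of MBOAT7/TSEN34, CEP95/DDX5, SDC1, YWHAZ and PRDM10. The region of MBOAT7, a lysophosphatidylinositol acyltransferase, and TSEN34, a catalytic subunit of the tRNA splicing endonuclease, spanned chr19:54189074-54191589 over all libraries. It measured 2516 and 2291 bp in control replicates 1 and 2 and 2497 and 2172 bp in FOXD2 replicates 1 and 2. The groups overlapped, and both replicates numbered 2 were narrower than those numbered 1. The region of DDX5, an RNA helicase, and CEP95, a centrosomal protein (chr17:64505388-64507639), measured 2198 and 2252 bp in the controls and 2177 and 2094 bp with FOXD2. The gene bodies of these pairs overlap at their 5′ ends, by 139 bp for MBOAT7 and TSEN34 and by 104 bp for CEP95 and DDX5. The TSEN34 start of the sequence shown, at 54190344, lies inside its gene body, which begins at 54189441. SDC1, which encodes the epithelial heparan sulphate proteoglycan syndecan-1 (chr2:20223344-20225651), measured 2296 and 2286 bp in the controls against 2241 and 2072 bp. In CEP95/DDX5 and SDC1 both FOXD2 widths lay below both control widths. The end of YWHAZ, the gene of 14-3-3 zeta, measured 2060 and 2731 bp in the controls and 2392 and 2283 bp with FOXD2, so the 2 controls lay outside the FOXD2 libraries on either side. The YWHAZ region held 1 interval in control replicate 2 and 2 in each other library, and only the widest is measured. PRDM10, a PR-domain zinc finger gene whose promoter held 13 CG dinucleotides, measured 2032, 2011, 2006 and 2102 bp in control replicates 1 and 2 and FOXD2 replicates 1 and 2.

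The regions that followed in width belonged to genes of varied function. GADD45A, a stress-response gene induced by p53, measured 2009 and 1997 bp in the controls and 1957 and 1999 bp with FOXD2. DOCK9, an exchange factor for CDC42, measured 2074 and 2139 bp against 1957 and 2130 bp. Neither of these separated the groups. NFE2L2, the gene of the antioxidant-response factor NRF2, measured 2063 and 1976 bp in the controls and 1923 and 1918 bp with FOXD2. The end shared by LPXN, a focal adhesion adaptor, and ZFP91, a zinc finger ubiquitin ligase, measured 2072 and 2197 bp against 1985 and 1965 bp. In these 2 regions both FOXD2 libraries were narrower. TPBG, a membrane glycoprotein gene, measured 1921 and 2253 bp against 2210 and 1965 bp. The end shared by RPL7, a ribosomal protein gene, and RDH10, a retinol dehydrogenase gene, measured 1936 and 1974 bp against 1907 and 2165 bp. The groups overlapped in both.

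**Figure D1:**
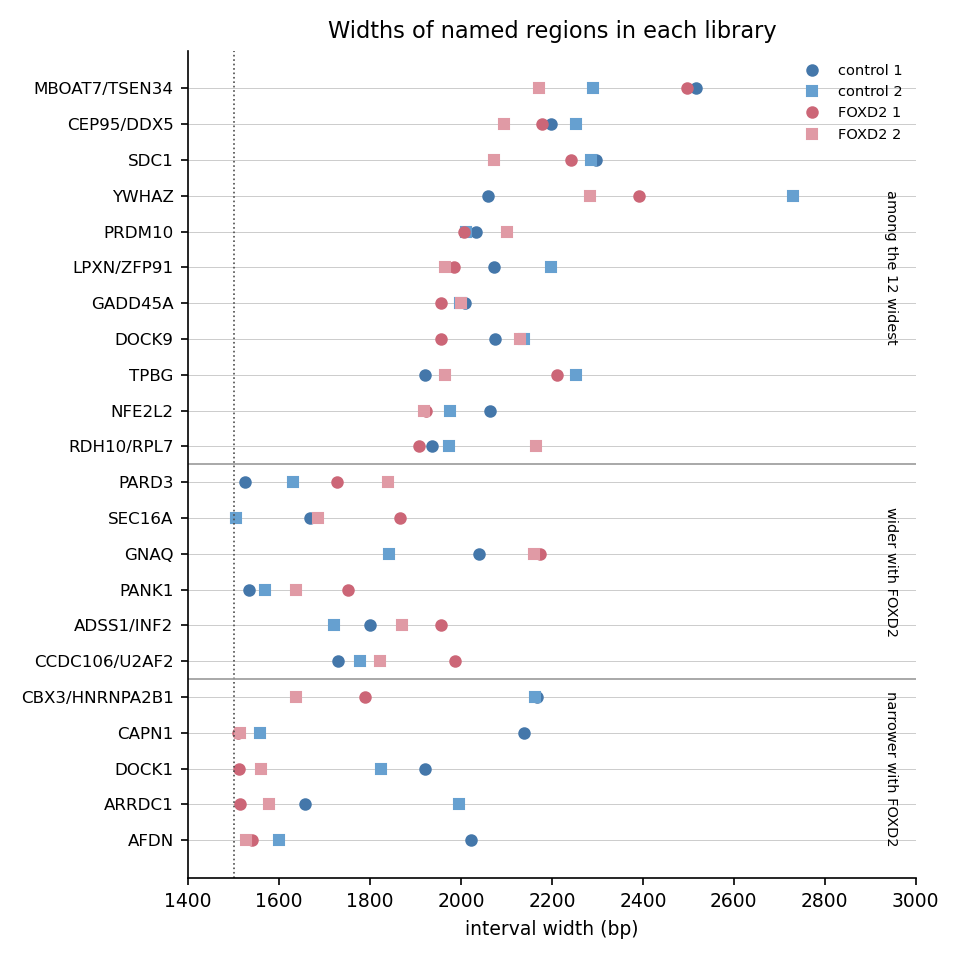
Interval width in bp (x axis) in each of the 4 libraries for 22 named regions (y axis): 11 of the 12 widest by minimum width, 6 wider in both FOXD2 libraries and 5 narrower in both. Blue marks controls, red marks FOXD2, circles replicate 1 and squares replicate 2. The dotted line is the minimum of 1500 bp. MBOAT7/TSEN34 lies farthest right by its narrowest library, at 2172 bp, and CBX3/HNRNPA2B1 has both controls above 2100 bp and both FOXD2 libraries below 1800 bp.

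Across all 244 regions the median width was 1742.5 bp in control replicate 1, 1720.5 bp in control replicate 2, 1684 bp in FOXD2 replicate 1 and 1680 bp in FOXD2 replicate 2. Both FOXD2 medians were below both control medians, by 49.5 bp between the group means. The other gene-end regions had medians of 931 and 884 bp in the controls and 894 and 833 bp with FOXD2, a difference of -44 bp. As a rank within its own list, the median member stood at the 99.47th and 99.59th width percentile in the controls and at 99.47 and 99.55 with FOXD2. The difference in percentile was -0.021 and changed sign when control replicate 2 or FOXD2 replicate 1 was left out (0.037 and 0.022). The widths themselves chose the members, so these values are a description with no test. Just inside the minimum lay TMEM263, MCFD2, NKIRAS1/NR1D2, PFN2 and SCMH1, with a narrowest library of 1502, 1502, 1501, 1501 and 1500 bp. Just outside lay PURA and WDFY2 at 1499 bp and MAF1/SHARPIN, CCDC142/TTC31 and ZBTB20 at 1498 bp.

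**Figure D2:**
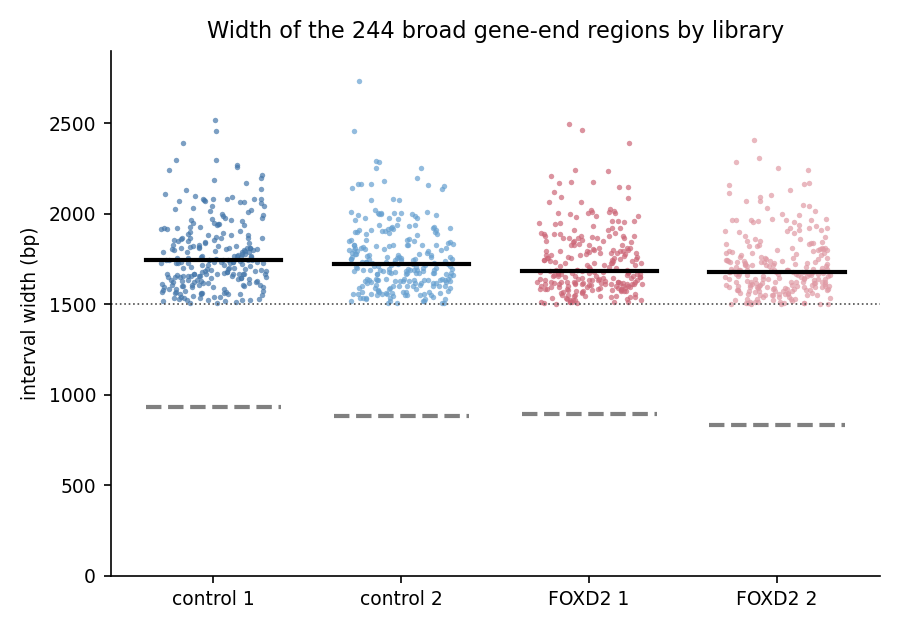
Width in bp of the 244 broad gene-end regions (points) in each library. Black lines are the medians of the regions, from 1680 to 1742.5 bp, and dashed grey lines the medians of the 12383 other gene-end regions, from 833 to 931 bp. The dotted line is the 1500 bp minimum, which every point meets by selection.

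Each region's 4 widths were set side by side. In 74 regions (30.3%) both FOXD2 libraries were narrower than both controls, where 24.1% of all 39933 regions present in all libraries were. In 22 regions (9.02%) both were wider, where 12.8% of all regions were, and in 148 the groups overlapped. Among the other gene-end regions the shares were 26.6% and 9.86%. The median ratio of FOXD2 to control mean width was 0.982, from 0.792 to 1.16, and 0.962 for the other gene-end regions. Since the widths chose the regions, nothing is read from these counts.

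Among the regions in which the groups did not overlap, the smallest ratio belonged to CBX3/HNRNPA2B1 (chr7:26200242-26202408). It measured 2167 and 2162 bp in the controls and 1789 and 1638 bp with FOXD2, a ratio of 0.792. This region held 2 intervals in FOXD2 replicate 1, where only the wider one is measured, and 1 in each other library. The starts of these genes lie 697 bp apart on opposite strands. The end of CAPN1, which encodes the large subunit of calpain-1, measured 2138 and 1557 bp against 1510 and 1514 bp (ratio 0.818), where control replicate 1 stood apart from the other 3 libraries. DOCK1, an exchange factor for RAC, measured 1920 and 1824 bp against 1511 and 1561 bp (0.821). ARRDC1, an arrestin-domain gene, followed at 0.846, and AFDN, the gene of the junction protein afadin, at 0.847. The ARRDC1 region also held 2 intervals in FOXD2 replicate 1. In AFDN control replicate 1 again stood apart, with 2021 bp against 1599, 1540 and 1527 bp.

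Among the regions wider in both FOXD2 libraries, the largest ratio belonged to PARD3, a gene of epithelial cell polarity, with 1524 and 1631 bp in the controls and 1728 and 1839 bp with FOXD2 (1.13). GNAQ, the alpha subunit of the G protein Gq, measured 2040 and 1842 bp against 2174 and 2161 bp (1.12). SEC16A, which organises exit sites of the endoplasmic reticulum, measured 1668 and 1506 bp against 1865 and 1685 bp (1.12). In SEC16A the nearest libraries of the groups, 1668 and 1685 bp, lay close together. The SEC16A region held 2 intervals in each control and 1 in each FOXD2 library, and only the widest is measured. PANK1 (1.09), ADSS1/INF2 (1.09) and CCDC106/U2AF2 (1.09) completed the 6 with the largest ratios. The CCDC106/U2AF2 region held 2 intervals in control replicate 2.

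**Figure D3:**
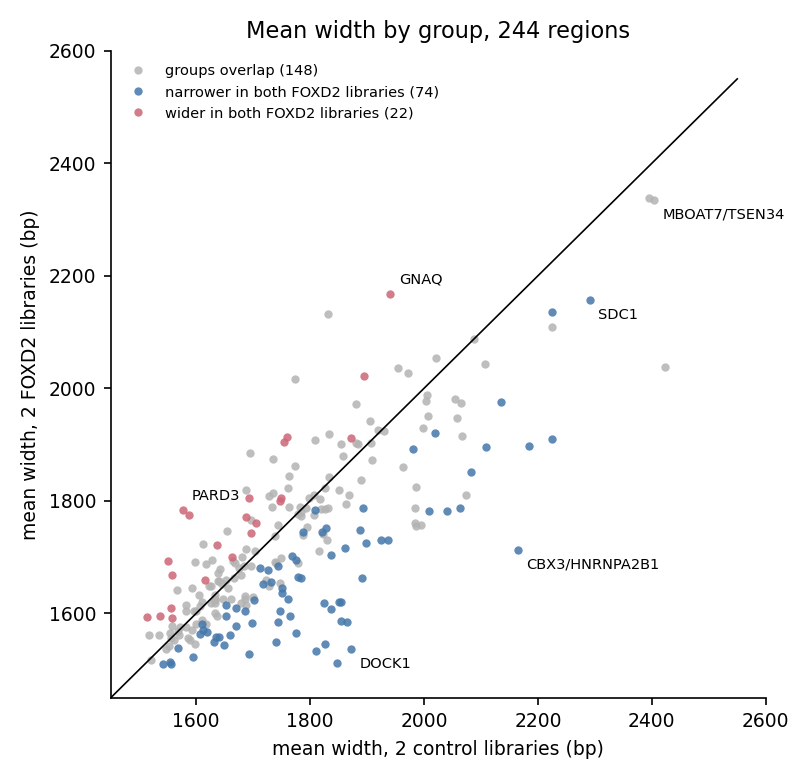
Mean width in bp over the 2 control libraries (x axis) and the 2 FOXD2 libraries (y axis) for the 244 regions, with the line of equal width. Blue points (74) were narrower and red points (22) wider in both FOXD2 libraries, and the 148 grey points had overlapping groups. CBX3/HNRNPA2B1 lies far below the line, with means of 2164.5 and 1713.5 bp.

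The edges of broad gene ends were compared between libraries. The 4 starts of a region spanned a median of 91.5 bp and the 4 ends 94.5 bp. The stretch covered by all 4 libraries had a median of 1582 bp, or 88.6% of the merged region, against 69.7% for the other gene-end regions. The minimum of 1500 bp in every library fixes much of this stretch, so the contrast is a description of the choice. The summit, the point of highest signal in an interval, was also compared. Its 4 positions spanned a median of 114.5 bp, against 71 bp for the others, and in 58 regions (23.8%) the summits of the libraries lay over 500 bp apart, against 8.23% of the others. NFE2L2 was one of them, with summits up to 1208 bp apart while the 4 starts agreed within 14 bp. The part of the width in the summits' spread was not tested. As a description over the 244 regions, which share their libraries, Spearman's rho of width was 0.629 between the controls and 0.571 between the FOXD2 libraries, and ran from 0.532 to 0.638 between the groups.

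Broad gene ends had a high significance but a moderate height. The authors' −log10 q of a library's widest interval in a region had a median of 59.3 and 53.2 in the controls against 49.0 and 38.1 with FOXD2. In the other gene-end regions the medians were 51.2, 46.8, 43.0 and 32.6. The median fold enrichment at the summit, the authors' ratio of signal to local background within a library, was 7.91 and 7.71 in the controls and 7.34 and 7.09 with FOXD2. It was higher in the other gene-end regions, at 9.27, 8.999, 8.50 and 7.81, so the broad regions were lower in 4 of 4 libraries. By minimum width, the median of the mean summit fold was 9.98 in the 6627 regions of 500 to 999 bp. It was 8.65 in the 713 regions of 1250 to 1499 bp, 7.74 in the 206 members under 1750 bp and 6.99 in the 38 members of 1750 bp or more. Regions under 500 bp had 5.39, so the order was not the same over the whole range of widths. The median percentile of −log10 q within a list was 59.2 in the regions under 500 bp. It was 90.4 at 500 to 999 bp, 92.0 at 1000 to 1249 bp and 91.0 at 1250 to 1499 bp. In the members it was 90.2 under 1750 bp and 87.7 from 1750 bp, so significance was not higher in members than in other regions from 500 bp up. GAPDH, the glycolytic enzyme gene, shows the low and wide form, with widths of 1760, 1827, 1863 and 1710 bp and folds of 3.82, 4.03, 4.04 and 4.17. ABCA3, a lipid transporter gene, shows the high form, with widths of 1826, 1793, 2004 and 1813 bp and folds of 11.8, 13.6, 10.5 and 10.8. The median over a gene end's list position did not separate the groups: members stood at the 91.0th and 89.7th percentile of −log10 q in the controls and at 91.3 and 89.1 with FOXD2.

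The highest mean percentiles of −log10 q belonged to LOC124904094/QTGAL, ABCA3, THEM6, MFSD11/SRSF2 and C17orf67/DGKE, all above 99. The lowest reported here was 61.1, for NPAS2, a paralog of the clock gene CLOCK, whose widths were 2299, 1670, 1565 and 1958 bp. MCTP1, a gene of a calcium-binding membrane protein, had 64.7, and UST, a sulphotransferase gene, had 67.9. These regions thus met the width minimum in every library with a strength far below that of most members.

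**Figure D4:**
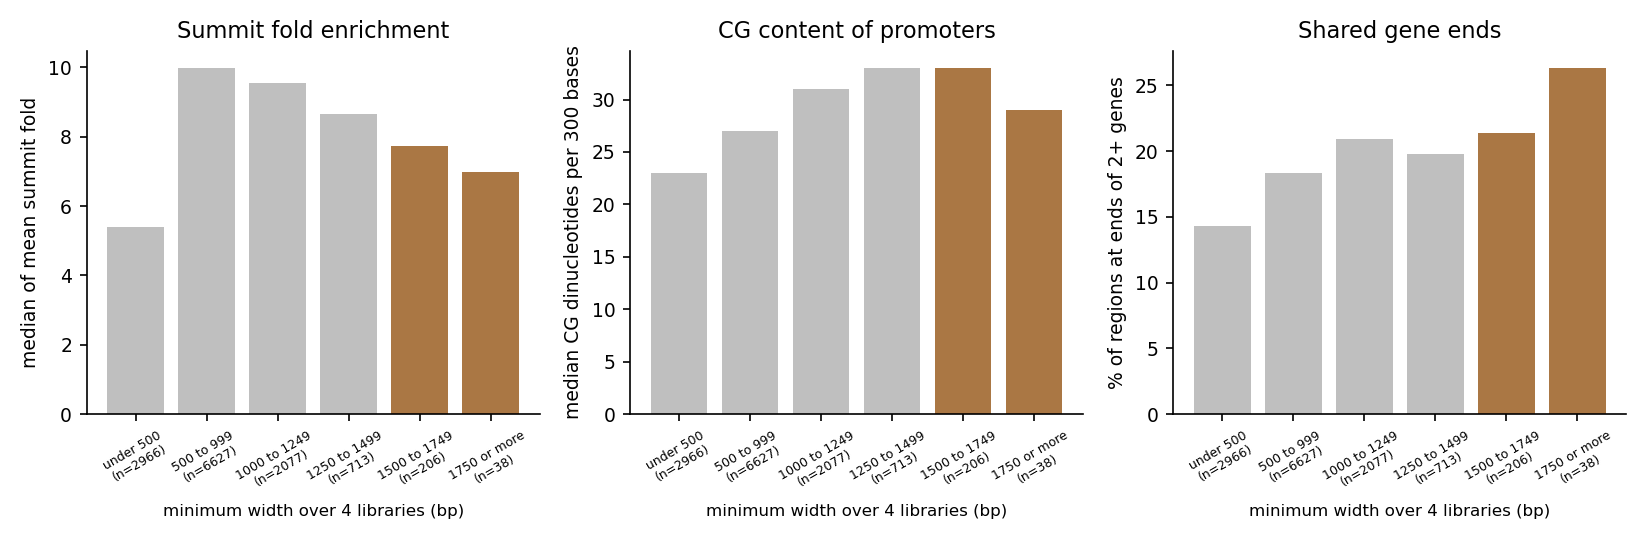
Gene-end regions present in all libraries by minimum width over the 4 libraries in bp (x axis, n below each bar), grey for the 12383 others and brown for the 244 broad ones. Bars show the median of the mean summit fold, the median number of CG dinucleotides per 300 bases of promoter, and the percentage of regions at ends of 2 or more genes. The fold is highest at 500 to 999 bp (9.98) and lowest among brown bars at 1750 bp or more (6.99). CG content peaks at 33 and the shared share reaches 26.3% in the widest class.

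Shared ends of neighbouring genes made up 54 of the 244 regions (22.1%, 95% Clopper-Pearson interval 17.1 to 27.9), against 2213 of 12383 others (17.9%, 17.2 to 18.6). A locus with a joined symbol was counted as a gene of its own, as in ZHX1/ZHX1-C8orf76. A wide region reaches more gene ends by its width alone. With a window around the middle of the region in place of its edges, the shares were 18.7% (13.8 to 24.4) and 15.8%. In either count the interval of the broad regions included the share of the others. The arrangement of the genes was counted as well. Of the 40 shared regions with a listed strand for every gene, 34 (85%) held 5′ ends on opposite strands, against 1057 of 1645 (64.3%) among the others. For 31 such pairs the distance between 5′ ends ranged from 4 to 1497 bp, with a median of 428 bp. Here a 5′ end is the outer bound of the gene body, so the distance is a gap in some pairs and an overlap in others. The start used for the promoter sequences can lie elsewhere in the gene. A gene with such a start inside a region, but neither end of its body within 1000 bp, was not counted there. Examples on the opposite strand are PAICS in the PPAT region and OARD1 in the NFYA region. Some regions counted as ends of a single gene thus hold the start of another. Of the 244 regions, 45 adjoined a gene without a listed strand, as did 2562 of the others. Among the rest, by the bounds of gene bodies, 159 broad regions lay at the 5′ end of a single gene. None lay at the 3′ end of a single gene only, while 712 of the others did.

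Pairs with opposite 5′ ends included ZBTB1/ZBTB25, zinc finger genes whose bodies overlap by 1497 bp. Their promoter windows, chr14:64503637-64503936 and chr14:64503789-64504088, overlap each other. The region measured 2097 and 2011 bp in the controls and 2064 and 1898 bp with FOXD2. HDLBP, an RNA-binding protein gene, and SEPTIN2, a septin gene, have bodies that overlap by 317 bp and had 1746, 1749, 1813 and 1785 bp. HNRNPK, an RNA-binding protein gene, and RMI1, a genome-stability gene, had 1650, 1626, 1708 and 1637 bp. MCM7, a subunit of the replicative helicase, and AP4M1, an adaptor complex subunit, had 1642, 1698, 1597 and 1624 bp. Of these pairs, AP4M1/MCM7 had both FOXD2 widths below both control widths, HDLBP/SEPTIN2 had both above, and the groups overlapped in ZBTB1/ZBTB25 and HNRNPK/RMI1. The ends of 3 or more genes fell in 5 regions (2.05%, against 0.896% of the others). The widest was GPT/RECQL4/SLC33A2, an aminotransferase, a DNA helicase and a transporter gene, at 2213 and 2157 bp in the controls and 1958 and 1837 bp with FOXD2. The other 4 were ELOVL3/GBF1/PITX3, C21orf58/LOC128092249/PCNT, LGSN/LOC124901228/LOC128125822 and CCDC92/ZNF664/ZNF664-RFLNA. In the last of these, ZNF664 and ZNF664-RFLNA begin at the same base. Shared ends had median widths of 1800, 1754.5, 1798 and 1693 bp, and ends of 1 gene 1728.5, 1705, 1667 and 1673.5 bp. Both FOXD2 widths were lower in 20 of the 54 shared and 54 of the 190 single ends, and both were higher in 4 and 18, where the shares over all regions present in all libraries were 24.1% and 12.8%. These counts too rest on the widths that chose the regions.

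Non-coding genes adjoined many of the regions. An end of a long non-coding RNA gene lay within 1000 bp of 91 regions (37.3%, 31.2 to 43.7), against 20.3% of the others (19.5 to 20.97). With the window around the middle the shares were 34.8% (28.9 to 41.2) and 18.2% (17.5 to 18.9), so the gap was of like size when a region's width did not set the window. Names ending in -DT, which RefSeq gives to divergent transcripts, were near 21 regions (8.61%, 5.41 to 12.9) and 3.95% of the others. Names ending in -AS, given to antisense transcripts, were near 30 (12.3%, 8.45 to 17.1) and 5.22% of the others. PRDM10-DT and DOCK9-DT at the ends of 2 of the 12 widest regions are examples. A microRNA gene end lay near 10 regions (4.098%, 1.98 to 7.41) and 1.22% of the others (1.03 to 1.43), among them MIR636 beside SRSF2 and MIR1281 beside EP300. With the window around the middle the microRNA shares were 3.69% (1.70 to 6.89) and 0.921%. Counting all RefSeq genes, 147 regions (60.2%) lay at ends of 2 or more genes, against 38.8% of the others. The -DT, -AS and all-gene counts used the whole span, so a region's width adds to them. None of the shares of non-coding genes was compared with gene ends of like width.

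Around the 5′ end of 1 gene, taken as the outer bound of its body, the 159 regions reached further into the body than away. A gene can start further in, and the stretch before such a start then counts as downstream. For PPARG the body begins at 12287368, the region spans chr3:12287482-12289110 and the promoter window spans chr3:12288810-12289109. The part of such starts in the contrast was not tested. The median reach upstream was 570 and 564 bp in the controls and 563 and 563 bp with FOXD2, and the median reach downstream 1179 and 1146 bp against 1147 and 1149 bp. The 7464 other regions of this kind reached 334 to 366 bp upstream and 517 to 575 bp downstream. The downstream part was the longer one in 74.8% to 76.7% of the broad regions and in 65.1% to 68.6% of the others. The 5′ end itself lay inside the interval in 88.7% to 90.6%. The median summit lay 21 to 44 bp upstream of the 5′ end, and 43 to 45 bp upstream in the others. This median is signed and does not give how far summits lay from the start. Summits were downstream of the 5′ end in 42.1% to 47.2% of the broad regions and 33.4% to 34.6% of the others. Between the groups the upstream edge differed by a median of -11 bp and the downstream edge by -19 bp in the broad regions (FOXD2 minus control), and by -10 and -18 bp in the others.

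**Figure D5:**
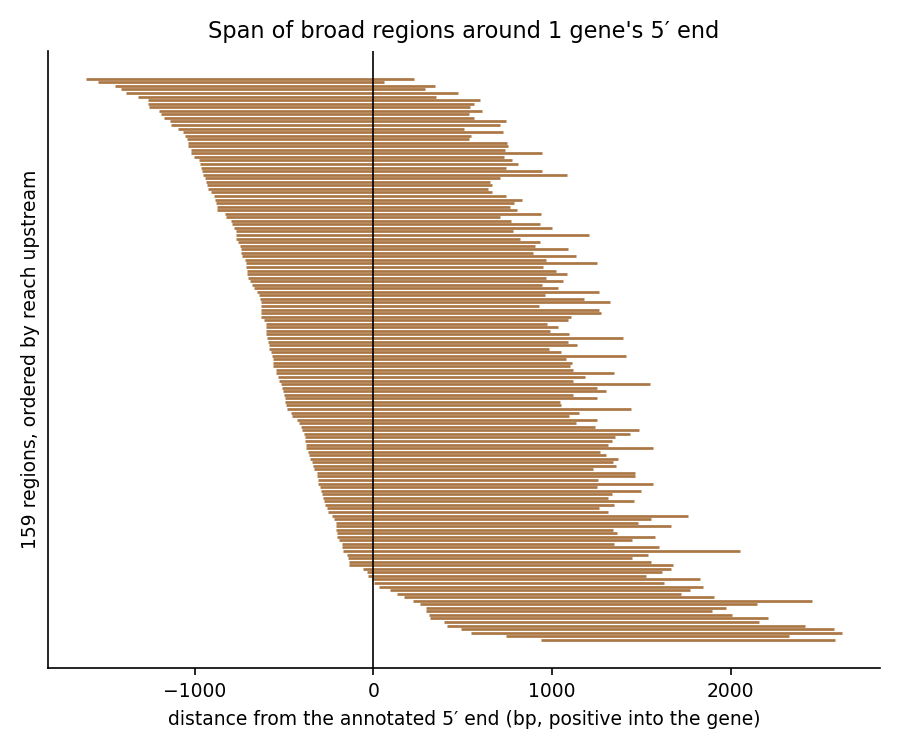
Span of the 159 broad regions at the 5′ end of 1 gene, with each line the mean span over 4 libraries. The x axis is the distance in bp from the annotated 5′ end, the outer bound of the gene body, positive into the gene. Regions are ordered by their reach upstream (y axis). Most lines cross 0 and extend further to the right, with library medians of 563 to 570 bp to the left and 1146 to 1179 bp to the right.

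Gene lists showed which kinds of gene had broad ends, beside 1.51% of all protein-coding genes. Of 30 genes of RNA splicing and RNA binding, 5 had one (16.7%): HNRNPA2B1, HNRNPK, SRSF1, SRSF2 and U2AF2. All 5 regions were shared with another gene. The SRSF1 region lay at the 3′ end of SRSF1 and held the 5′ end of VEZF1, so it is not a broad SRSF1 promoter. SRSF1 and SRSF2 encode SR proteins of splice-site choice, and U2AF2 the large subunit of the factor that binds the polypyrimidine tract. SRSF2, whose end is shared with MFSD11, measured 2023 and 1938 bp in the controls and 1874 and 1911 bp with FOXD2. U2AF2, shared with CCDC106, measured 1730 and 1778 bp against 1986 and 1822 bp. These 2 splicing genes lay on opposite sides, the first narrower and the second wider in both FOXD2 libraries. Of 24 ubiquitous control genes, 3 had a broad end (12.5%): GAPDH, YWHAZ and TUBA1B, a tubulin gene with widths of 1509, 1601, 1601 and 1531 bp. All 30 splicing genes and 22 of the 24 control genes had a gene-end region in all libraries, where 65.6% of all genes did. Their median narrowest width was 990 and 969 bp, against 816 bp over all genes with such a region.

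Of 24 p53 targets, 2 had a broad end, GADD45A and TP53INP1, a stress-induced autophagy and apoptosis gene with 1654 and 1619 bp in the controls and 1711 and 1732 bp with FOXD2. Of 27 genes of H3K4 methylation and coactivators, 2 had one: EP300, an acetyltransferase gene with 1684, 1691, 1745 and 1684 bp, and DPY30, a subunit of H3K4 methyltransferase complexes, whose end shared with MEMO1 had 1669, 1628, 1563 and 1525 bp. Of 78 cytosolic ribosomal protein genes RPL7 alone had one, although 75 had a gene-end region in all libraries, with a median narrowest width of 776 bp. KDM2A, a CXXC demethylase that binds unmethylated CG dinucleotides, was 1 of 30 genes of its list, at 1787, 1850, 1798 and 1774 bp. HOXB9, 1 of 39 HOX genes, had 1939, 1898, 1947 and 1905 bp. The remaining lists with 1 each were AP-1 and immediate early factors (BTG1, an antiproliferative gene, of 30), WNT (GSK3B, the kinase that marks beta-catenin for destruction, of 34), and KLF and SP (KLF3, a transcriptional repressor gene, of 26). TGF-beta and BMP (SKIL, a SMAD-binding repressor gene, of 34), cell cycle (MCM7, of 42) and heat shock (HSPA8, a constitutive chaperone gene, of 25) also had 1 each.

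None was found among 41 forkhead, 30 epithelial junction and identity, 24 intestinal factor, 19 SOX, 27 ETS, 27 NOTCH, 20 NF-kB and 18 MAPK feedback genes, nor among the marker lists of 5 cell types. All 18 MAPK feedback genes and 29 of the 30 epithelial genes had a gene-end region in all libraries, with median narrowest widths of 816.5 and 800 bp. The 26 forkhead genes with such a region had a median of 690 bp. Families that share the start of a symbol were counted after the values had been seen. Of 13 septin genes, which encode filament-forming GTPases, SEPTIN2, SEPTIN7, SEPTIN10 and SEPTIN11 had broad ends. So did 4 of 26 HNRNP genes, 4 of 42 ZBTB genes, and 2 of 4 MSL genes, MSL1 and MSL2, subunits of the H4K16 acetyltransferase complex. The pseudokinase genes TRIB1 and TRIB3 were 2 of 3, while 6 of 517 ZNF genes (1.16%) and 0 of 392 genes with symbols starting with OR had one. Genes with a broad end had a median body length of 38.3 kb, against 28.8 kb for other genes with a gene-end region in all libraries and 24.2 kb for all.

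Chromosomes differed in their share of broad gene ends. Chromosome X had 0 of 354 gene-end regions (up to 1.04% by the exact interval), chromosome 22 had 1 of 314, chromosome 19 had 7 of 984 (0.711%, 0.286 to 1.46), and chromosome 21 had 6 of 111 (5.41%, 2.01 to 11.4). The median −log10 q of gene-end regions, in control replicates 1 and 2 and FOXD2 replicates 1 and 2, was 30.4, 29.7, 26.7 and 20.97 on chromosome X. It was 51.5, 50.7, 47.8 and 38.5 on chromosome 21, 48.0, 43.0, 39.4 and 29.3 on chromosome 19, and 46.6, 42.3, 40.3 and 29.5 on chromosome 22. The median summit fold on chromosome X was 9.49, 9.27, 8.77 and 8.25, above the 9.26, 8.99, 8.50 and 7.82 of the genome outside the segments named next, so the 2 measures of strength lay on opposite sides there. HCT116 cells are known to carry extra copies of distal 8q, 10q and 17q. Distal 8q (from 66 Mb) held 15 broad regions among 270 gene-end regions (5.56%, 3.14 to 8.998), distal 10q (from 96 Mb) 7 (3.41%) and distal 17q (from 42 Mb) 12 (2.75%). Together they held 34 (3.73%, 2.595 to 5.17), among them YWHAZ, CEP95/DDX5, RDH10/RPL7 and HOXB9, and the rest of the genome held 210 (1.79%, 1.56 to 2.05). The median −log10 q of gene-end regions was 64.2, 59.8, 55.0 and 42.1 on distal 8q and 50.9, 46.4, 42.6 and 32.3 in the rest of the genome. The median summit fold on distal 8q was lower than in the rest in all 4 libraries, at 8.50, 8.19, 7.86 and 7.104. The median narrowest width was 818 bp on distal 8q and 760 bp in the rest. The part of DNA copy number or peak strength in the choice of these regions was not tested.

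Regions as broad as these were mostly at gene ends. Of 292 regions with at least 1500 bp in every library, 244 (83.6%) met the gene-end window. Of the other 48, 34 lay inside a protein-coding gene body, 28 held a start site of the RefSeq promoter table and 18 lay near an end of another kind of gene, while 14 held no listed start and had no such end nearby. ZMYND11, a chromatin reader gene, had the widest by its narrowest library, with 2049, 2210, 2020 and 1921 bp at a start site inside its body, followed on the same measure by KLF12, a transcription factor gene, with 1951, 1945, 2026 and 1881 bp. At the threshold, 271 gene-end regions were broad in 3 libraries and not the fourth, and the missing library was FOXD2 replicate 2 in 116, control replicate 2 in 78, FOXD2 replicate 1 in 48 and control replicate 1 in 29. FOXD2 replicate 2 also had the shortest list and the fewest intervals of 1500 bp or more, 686 against 1243, 906 and 1047 in control replicates 1 and 2 and FOXD2 replicate 1.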

How the data were processed

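The 4 libraries are described by lists of ATAC-seq peak intervals, 1 per library and none pooled, with hg38 coordinates. The submitters' processing notes name MACS2 2.2.7.1, Bowtie2 2.3.4.1, cutadapt 3.4, bedtools and Picard. The sources used here give neither their settings nor whether cut sites were shifted. The deposited files give for each interval the authors' fold enrichment at the summit (a ratio within that library), −log10 p-value, −log10 q-value and a whole-number score. The score and −log10 p were not used, and the other values served only to describe, rank or filter intervals within a list. Read depth is unknown, and 0 columns matched no sample.

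Intervals overlapping by 1 bp or more were merged, and a library's width, fold and −log10 q in a region are those of its widest interval. Members with 2 or more intervals numbered 7 and 8 in control replicates 1 and 2. They numbered 9 and 6 in FOXD2 replicates 1 and 2. With a library's intervals in a region summed, the difference in median width was -47 bp. Gene ends came from RefSeq (GRCh38.p14), with both ends of 19974 protein-coding genes and a window of 1000 bp. Strand and promoter sequence were listed for 15812 genes, 251 of the 302 genes described. Exon, intron and UTR positions were not used. The members and gene lists were chosen with earlier results of these data known. Named regions are the 12 widest, those nearest the minimum, those with ends of 3 or more genes, the 6 largest and 6 smallest ratios of FOXD2 to control width without overlap, the 5 highest and 5 lowest percentiles of −log10 q, and up to 4 members of each gene list. Of the regions that this rule named, 3 are not reported here, and others are named as examples chosen after their values were seen. The widths chose the members, so group medians are given with no test, and an exact permutation test of 2 libraries against 2 cannot give a p below 0.33. Shares carry 95% Clopper-Pearson intervals, which cover counting error only. Alternatives were the width minimum, the gene window, merging, list length, a −log10 q minimum, the replicate block, leaving out each library and, chosen after seeing the data, leaving out the 3 gained segments. The merging and width steps were tested on simulated data. Python 3.11.15, numpy 2.4.6, pandas 2.3.3, scipy 1.17.1 and matplotlib 3.10.9 were used.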

Additional observations from a re-analysis of the deposited data

How the results depend on the processing

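The number of broad gene ends followed the width minimum: 1223 at 1200 bp, 5 at 2000 bp, and 748 for the widest 3% of each list. It stayed between 207 and 249 with windows of 500 or 2000 bp, 5′ ends only, a −log10 q of at least 5, lists of equal length or merging within 100 bp, and ran from 273 to 360 with 1 library left out. The share at ends of 2 or more genes was 40% among the 5 regions of 2000 bp and 60.2% over all RefSeq genes, and ran from 21.1% to 21.98% with 1 library left out. The difference in median width was -49.5 bp and ran from -60.5 to -38.5 bp with 1 library left out. The difference in width percentile turned to 0.0054 at 2000 bp, and ran from -0.079 to 0.037 with 1 library left out; the cause was not tested. With the replicate block, pairing libraries of the same number, the differences were -49.5 bp and -0.021, and with 2 pairs no exact paired test can give a p below 0.5. The unknown depth limits every width, since an interval ends where the signal no longer passes the peak caller's threshold.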
